A study of Mus musculus with 6 samples.

Results

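The regions described here were open in mouse embryonic fibroblasts (MEFs) grown in 20% oxygen and were not called open in MEFs grown in 3% oxygen. Peaks of 4 ATAC-seq libraries were merged wherever they overlapped or touched, which gave a pool of 170532 regions. A region was kept when a peak of both normoxic libraries overlapped it and no peak of either hypoxic library did. This left 4470 regions, or 2.62% of the pool, and the reverse pattern, a peak in both hypoxic libraries and in neither normoxic one, was found at 852 regions, or 0.5% of the pool. The members were chosen by the presence and absence of peak calls in these same libraries, so those counts, the strength of the peaks and the peaks of the other libraries are given as a description with no test.

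The MEFs for ATAC-seq came from C57BL/6J embryos at stage E13.5, no genetic change or drug is named for any group, and each condition is represented by 1 library. Norm-Pro are MEFs at passage 1 in normoxia (20% oxygen), Norm-Sen are senescent MEFs in normoxia, Hyp-Pro are MEFs at passage 1 in hypoxia (3% oxygen), and Hyp-Imm are MEFs that became immortalized in hypoxia. A pair of ChIP-seq libraries of the transcription factor Tfcp2l1, from senescent MEFs in normoxia and immortalized MEFs in hypoxia, completes the series. MEFs are a primary culture of the trunk of the embryo and hold more than one kind of mesenchymal cell, and the peak lists do not tell a site that is open in fewer cells from one that is less open in each cell.

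The labels and the file names of the ATAC-seq libraries disagree. Conditions were taken from the labels, and by the file names the oxygen levels of all 4 libraries are exchanged, so that the same 4470 regions would be those open only in 3% oxygen. The file names also give another state for 3 of the libraries: Norm-Pro would be immortalized, Norm-Sen would be at passage 1 and Hyp-Imm would be senescent, while Hyp-Pro would stay at passage 1. By the file names the pair at passage 1 is therefore Norm-Sen with Hyp-Pro, and the late pair is Norm-Pro with Hyp-Imm. The peak names inside the files carry one tag in both libraries labelled normoxia and another in both labelled hypoxia, and nothing read for this work says what the tags mean. The oxygen level and whatever these tags stand for cannot be told apart.

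ATAC-seq uses the Tn5 transposase, which inserts sequencing adapters where DNA is not covered by nucleosomes. Most such sites in fibroblasts are promoters of active genes, enhancers held open by factors such as AP-1 and TEAD, or sites of CTCF, the protein that anchors chromatin loops. Promoters that drive housekeeping genes are often bound by Sp and Klf proteins, NF-Y, ETS factors and NRF1, the last a regulator of genes for mitochondrial respiration.

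The following windows reach 100 bases to either side of the summits of members, on the plus strand of GRCm38 (RefSeq), and they are shown because they are among the highest ranked members with the motifs on which the results turn. Each window lies outside annotated exons. Trhr, Fam50b and Zbtb38 name the nearest genes of 3 strong members with the AP-1 motif, and the windows are chr15:44176029-44176229, 19.9 kb from the start site of Trhr, chr13:34715459-34715659, 19.2 kb from that of Fam50b, and chr9:96783333-96783533, 30.5 kb from that of Zbtb38. Irx4 and Sh3d19 name a pair with the CTCF motif, at chr13:73160357-73160557 and chr3:86110155-86110355, the second in an intron. Lin28b (chr10:45485816-45486016) carries the ETS motif and belongs to a region that reaches over an exon. Ints7 (chr1:191575996-191576196), a promoter 0.374 kb from the start site, holds 3 NRF1 matches, of which 2 overlap each other, and a CTCF match. Capitals mark AP-1 (TGACTCA), CTCF, ETS (CCGGAAGT), NRF1 (GCGCATGC), TEAD (GGAATG) and NF-Y (CCAATCA) matches on either strand.
Trhr: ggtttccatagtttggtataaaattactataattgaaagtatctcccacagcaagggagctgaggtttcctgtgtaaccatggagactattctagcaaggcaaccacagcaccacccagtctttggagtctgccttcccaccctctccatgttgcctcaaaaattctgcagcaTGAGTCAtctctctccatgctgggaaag
Fam50b: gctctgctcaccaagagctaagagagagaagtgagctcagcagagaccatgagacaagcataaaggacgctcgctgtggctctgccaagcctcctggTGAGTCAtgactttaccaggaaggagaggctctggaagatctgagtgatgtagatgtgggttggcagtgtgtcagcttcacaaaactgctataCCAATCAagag
Zbtb38: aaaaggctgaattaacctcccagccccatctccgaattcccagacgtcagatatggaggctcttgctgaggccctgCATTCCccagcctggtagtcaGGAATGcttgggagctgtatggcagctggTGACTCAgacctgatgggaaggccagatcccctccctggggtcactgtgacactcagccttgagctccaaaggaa
Irx4: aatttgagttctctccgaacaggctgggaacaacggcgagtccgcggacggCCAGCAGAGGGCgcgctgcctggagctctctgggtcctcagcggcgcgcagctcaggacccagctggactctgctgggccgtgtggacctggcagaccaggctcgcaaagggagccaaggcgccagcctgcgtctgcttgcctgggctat
Sh3d19: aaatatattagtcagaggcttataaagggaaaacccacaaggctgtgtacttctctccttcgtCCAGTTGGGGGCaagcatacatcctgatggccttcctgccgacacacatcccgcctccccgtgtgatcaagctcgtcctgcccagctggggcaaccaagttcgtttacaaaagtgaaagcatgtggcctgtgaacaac
Lin28b: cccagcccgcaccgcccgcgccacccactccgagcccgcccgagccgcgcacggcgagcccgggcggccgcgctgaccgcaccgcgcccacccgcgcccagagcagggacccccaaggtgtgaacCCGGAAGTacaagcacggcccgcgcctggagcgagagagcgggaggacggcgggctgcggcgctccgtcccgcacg
Ints7: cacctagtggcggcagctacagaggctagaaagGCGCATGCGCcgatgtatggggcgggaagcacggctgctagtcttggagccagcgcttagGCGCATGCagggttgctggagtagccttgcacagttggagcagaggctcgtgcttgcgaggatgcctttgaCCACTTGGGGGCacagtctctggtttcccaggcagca

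A further 3 windows lie near genes that the study followed. The member in an intron of Cdkn1a, the gene of the cell cycle inhibitor p21, is at chr17:29095397-29095597, 4.52 kb downstream of the 5′ end of the gene. The member upstream of Cdkn2b, the gene of the inhibitor p15, is at chr4:89427943-89428143, and its CTCF and AP-1 matches overlap. The member upstream of Nanog, a pluripotency factor, is at chr6:122702558-122702758 and holds a match to the Tfcp2l1 motif between TEAD matches. Capitals mark the same motifs and, near Nanog, the Tfcp2l1 match.
Cdkn1a: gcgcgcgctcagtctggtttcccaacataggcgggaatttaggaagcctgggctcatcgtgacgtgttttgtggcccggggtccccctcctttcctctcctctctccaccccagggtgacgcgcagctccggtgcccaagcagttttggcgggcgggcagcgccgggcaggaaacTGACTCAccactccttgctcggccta
Cdkn2b: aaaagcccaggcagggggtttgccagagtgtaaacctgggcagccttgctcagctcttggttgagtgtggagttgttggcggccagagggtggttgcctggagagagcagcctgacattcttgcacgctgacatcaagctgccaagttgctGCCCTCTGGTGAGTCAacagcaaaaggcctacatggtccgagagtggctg
Nanog: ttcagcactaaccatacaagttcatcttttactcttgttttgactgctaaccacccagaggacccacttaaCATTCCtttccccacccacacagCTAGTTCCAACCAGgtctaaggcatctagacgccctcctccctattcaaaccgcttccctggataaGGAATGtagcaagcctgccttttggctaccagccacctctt

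The number of members has to be read against the number of peaks in each library, which differed between the libraries. Norm-Pro had 69122 peaks and Norm-Sen 61408, while 47523 were called for Hyp-Pro and 37770 for Hyp-Imm. Of the 6 sets of regions shared by exactly 2 libraries, the members were the largest with 4470 regions and the hypoxic pair the smallest with 852. The other sets held 2947 (the passage 1 pair), 2849 (Norm-Sen and Hyp-Pro), 1264 (Norm-Pro and Hyp-Imm) and 1025 (the late pair). This is the same order as that of the products of the 2 libraries' peak counts, in all 6 places. When each library was reduced to its 37770 peaks with the highest −log10 q, the significance that the peak caller gave, 2284 regions were open only in 20% oxygen and 955 only in 3% oxygen, and the 20% oxygen set was still the largest of the 6. For Hyp-Imm these were all of its peaks, down to a −log10 q of 1.31, so equal numbers did not give equal strength. Only 4171 Hyp-Imm peaks had a −log10 q of at least 5, compared with 11761 Hyp-Pro, 13571 Norm-Sen and 13663 Norm-Pro peaks. The median over all peaks was 2.91 for Hyp-Imm, 3.84 for Hyp-Pro, 3.72 for Norm-Sen and 3.41 for Norm-Pro. The part of the weaker Hyp-Imm peaks in both counts was not tested. Total reads are not in the peak lists. An attempt to read relative depth from the steps of the fold values accounted for only 19.6% to 30.9% of the peaks of a library, so no depth was taken from it, and the part of depth in these counts was not tested.

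**Figure D1:**
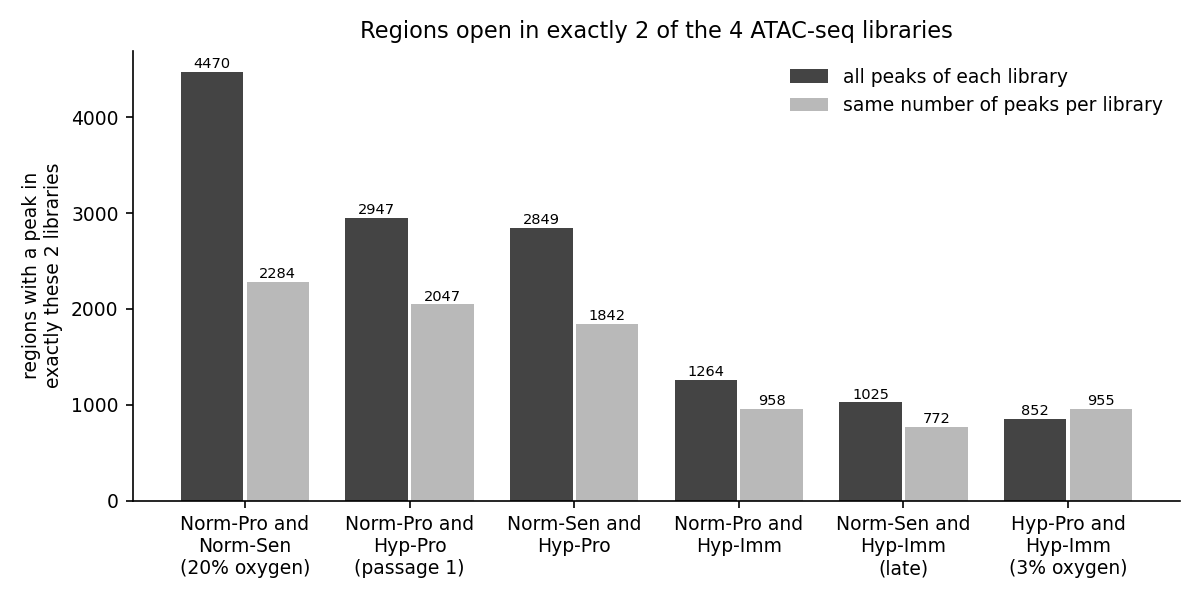
Number of regions (vertical axis) with a peak in exactly the 2 libraries named below each pair of bars; dark bars use all peaks, light bars the 37770 strongest peaks of each library. The set open only in 20% oxygen holds 4470 regions, or 2284 with equal peak numbers, against 852 and 955 for the set open only in 3% oxygen.

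Members were weaker peaks than the regions open in all 4 libraries and close to the typical peak of their own library. Their median −log10 q was 3.86 in Norm-Pro and 4.02 in Norm-Sen, while regions with a peak in all 4 libraries had medians of 9.04 and 8.43 and all peaks had medians of 3.41 and 3.72 in the same 2 libraries. Their median fold enrichment, the height at the summit over the local background of the same library, was 4.47 in Norm-Pro and 4.34 in Norm-Sen, and that of all peaks was 4.47 and 4.29. Only 453 members, or 10.1%, had a −log10 q of at least 5 in both libraries, and 10 reached 10 in both. Among the 14532 regions open in both normoxic libraries, the share without a hypoxic peak was 77.1% where the lower −log10 q was under 2, 40.2% from 3 to 5, 5.21% from 7 to 10 and 0.684% from 10 to 20. No member was found among the 116 regions with a lower −log10 q of 20 or more, which allows a share of up to 3.13%. The hypoxic pair showed the same fall with strength at a lower level, with 23.3% of its regions lacking a normoxic peak from 2 to 3 and 2.12% from 5 to 7.

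**Figure D2:**
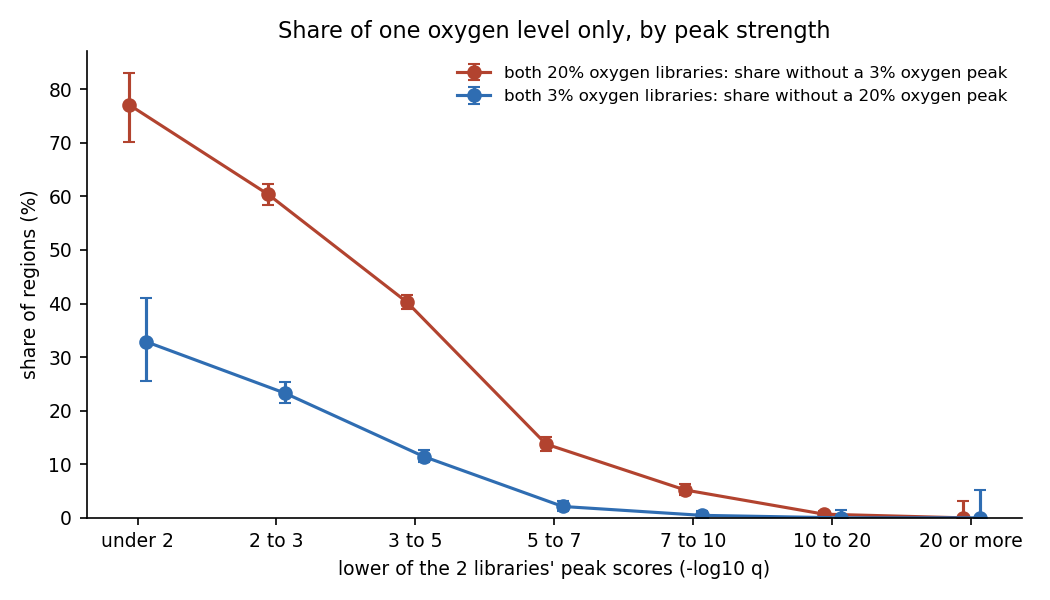
Share of regions without a peak at the other oxygen level (vertical axis, percent) against the lower −log10 q of the pair of libraries (horizontal axis), for the normoxic pair (red) and the hypoxic pair (blue); bars are exact 95% intervals. The share falls from 77.1% among the weakest to 0 of 116 among the strongest regions of the normoxic pair.

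The edge of the rule can be seen in a pair of regions. The weakest member, at chr7:144023471-144023610 near Shank2, had a −log10 q of 1.69 in Norm-Pro and 2.54 in Norm-Sen. The region left out by the weakest hypoxic peak, at chr7:118533239-118533514 over a start site of Coq7, had 5.72 and 3.59 in the same libraries and a Hyp-Imm peak of 1.39.

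The rule places peaks of both normoxic libraries in each member, so the nearness of these peaks was in large part fixed in advance. Their summits lay a median of 40.5 bp apart and within 50 bp of each other at 58.5% of members. The summits of the 2 libraries were as near at 58.0% of regions open only in 3% oxygen and 55.5% of the pair labelled passage 1. Those of the normoxic libraries were so at 52.98% of regions open in all 4 libraries. The 2 peaks shared at least 50% of the shorter one at 3662 members, or 81.9%. Members were 190 bp wide at the median, against 399.5 bp for regions open in all 4 libraries and 114 bp for the pool. A region spans every peak merged into it, so its width depends in part on how many libraries have a peak there. A hypoxic peak lay within 500 bp of 1044 members, or 23.4%, and the median distance to the nearest hypoxic peak was 6.52 kb.

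Of the members, 1504 lay at promoters, within 1 kb of a start site of a protein-coding transcript. This was 33.6% of members (exact 95% interval 32.3 to 35.1), against 25.6% of regions open only in 3% oxygen (22.7 to 28.7), 83.6% of regions open in all 4 libraries and 13.7% of the pool. A further 21.7% of members were in introns, 4.92% over other exons and 39.7% between genes. The pair labelled passage 1, which mixes the oxygen levels, had 35.8% at promoters (34.1 to 37.6), and its interval overlaps that of the members. Among regions open in both normoxic libraries with a lower −log10 q from 3 to 5, 34.8% of 2328 members were at promoters (32.9 to 36.8), against 67.5% of the 3453 regions that also had a hypoxic peak (65.9 to 69.1). From 7 to 10 these shares were 66.3% of 98 members (56.1 to 75.6) and 85.8% of 1813 regions (84.1 to 87.4). At like strength the share at promoters was lower in members, with intervals that did not overlap in any of the 4 classes from 2 to 10. Members were also narrower, with a median of 195 bp against 285 bp from 3 to 5, and they are merged from the peaks of fewer libraries.

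Promoters were also counted by gene. Of 21827 protein-coding genes, 899 had a peak at a start site in both normoxic libraries and in no hypoxic library, or 4.12%, and 102 had the reverse. A member lay in the promoter windows of 1602 genes. At 642 of them no hypoxic peak was present, and at 960 a hypoxic peak lay elsewhere in the windows of the same gene. Promoters with a peak numbered 11485 in Norm-Pro and 11078 in Norm-Sen, while Hyp-Pro had 10350 and Hyp-Imm 7288.

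Of the 12 strongest members with a start site within 100 kb, ranked by the lower −log10 q of the 2 libraries, 9 were promoters. They were near Snrpa, Lztfl1, Cnksr3, Srxn1, Ube2t, Mast4, Ube2cbp, Sec31a, Nfia, Trhr, Pdcd2 and Exoc3. The first of these, at chr7:27196118-27196371 over the start site of Snrpa, a protein of the U1 splicing particle, had a fold enrichment of 7.05 in Norm-Pro and 5.96 in Norm-Sen, and the nearest hypoxic peak was 16.97 kb away. The member over the start of Lztfl1, which takes part in traffic to the cilium, had folds of 8.15 and 7.49 in Norm-Pro and Norm-Sen, with the nearest hypoxic peak 19.8 kb away. Neither promoter held a hypoxic peak, whereas Cnksr3 had one at another of its start sites. The member at Srxn1, the gene of sulfiredoxin, which repairs over-oxidised peroxiredoxins, had folds of 6.40 and 6.11 and an AP-1 motif, and the nearest hypoxic peak was 0.092 kb away. Hypoxic peaks were also close to the members at Mast4 (0.052 kb), Ube2cbp (0.064 kb) and Pdcd2 (0.065 kb).

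The 12 strongest promoter members of genes with no hypoxic peak within 1 kb of any of their start sites were those of Snrpa, Lztfl1, Ube2t, Exoc3, Phf6, Mras, Lrig3, Nsun3, Atp5d, Sema3c, Copb2 and Tmem161b. Ube2t encodes the E2 enzyme of the Fanconi anaemia pathway, Exoc3 a subunit of the exocyst, Nsun3 a methyltransferase of mitochondrial tRNA, Atp5d a subunit of ATP synthase and Copb2 a subunit of the COPI coat. The peak of Exoc3 had folds of 7.31 in Norm-Pro and 6.59 in Norm-Sen, that of Mras, a Ras-family GTPase, 5.90 and 6.35, and that of Tmem161b 7.08 and 10.1. An ETS motif lay within 100 bp of the summit at Exoc3, Nsun3, Copb2 and Tmem161b, and the CRE motif TGACGTCA at Atp5d. The nearest hypoxic peak was 107.1 kb away at Mras and 2.12 kb away at Atp5d.

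Motifs were counted in the 200 bp around the summit of each region, on both strands, and the share of all regions of the pool with the motif in a window of the same length is given beside each value. In all, 24 motifs were searched. Away from promoters several motifs, CTCF and AP-1 among them, were more frequent in members than in the pool, with intervals that did not overlap. CTCF, allowed 1 mismatch, was found at 10.9% of 2950 members outside promoters (9.78 to 12.1), against 8.40% of regions open only in 3% oxygen (6.35 to 10.8), 10.0% of regions open in all 4 libraries and 4.401% of the pool. The pair labelled passage 1 had CTCF at 11.2% (9.78 to 12.7). AP-1 was found at 12% of these members (10.8 to 13.2), against 9.35% of regions open only in 3% oxygen (7.19 to 11.9), 15.3% of regions open in all 4 libraries (12.9 to 17.95) and 6.46% of the pool. The intervals of members and hypoxic regions overlapped for both motifs. AP-1 was more frequent in the pair labelled passage 1, with 18% (16.3 to 19.8), than in members, and was at 14.7% (13.2 to 16.3) in the pair of Norm-Sen and Hyp-Pro. TEAD was found at 15.3% of members outside promoters (14.0 to 16.6) and 13.2% of the pool, and RUNX, TGTGGT, at 16.5% and 16.4%. The E-box CAGCTG was at 16.7% (15.4 to 18.1) and 13.9%, and the NRF2 motif TGACNNNGC at 11.9% (10.8 to 13.1) and 9.12%. TEAD, Sp and Klf, ETS and NRF1 also lay above the pool without overlap. The homeobox motif TAATTA was lower, at 1.15% (0.799 to 1.61) and 2.03%. Median GC outside promoters was 55% in members and 51.5% in the pool, and its part was not tested.

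**Figure D3:**
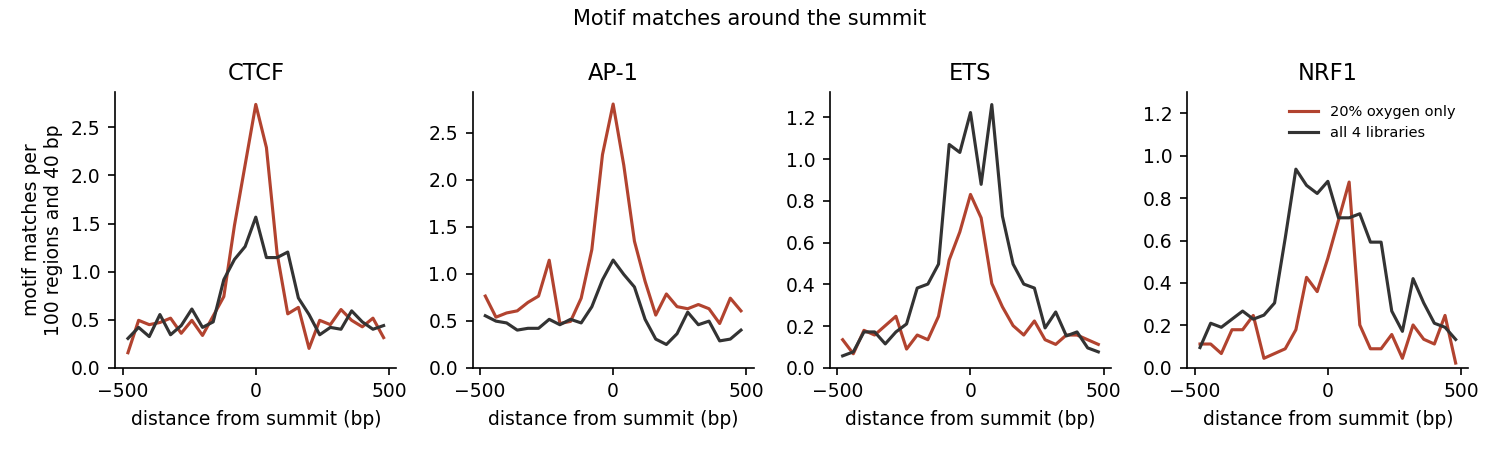
Motif matches per 100 regions in bins of 40 bp (vertical axis) against the distance from the summit (horizontal axis) for members (red) and regions open in all 4 libraries (black). In members CTCF and AP-1 peak at the summit, with 2.74 and 2.81 matches per 100 regions in the central bin.

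Matches for AP-1, CTCF and ETS were concentrated at the summits, whose sequence the rule did not use. AP-1 had 2.81 matches per 100 members in the 40 bp at the summit, against a median of 0.617 per 100 (0.471 to 0.763) over the 10 bins that lie 320 bp or more away. CTCF had 2.74 per 100 at the summit and a median of 0.483 (0.157 to 0.606) in those flanking bins, and ETS had 0.831 and 0.146 (0.0674 to 0.202). TEAD, with 2.45 at the summit and 2.20 (1.71 to 2.47) in the flanking bins, was not concentrated there. RUNX had 3.73 and 2.68 (2.40 to 3.10).

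At promoters the members held ETS and NRF1 motifs more often than the promoter regions of the pool and Sp and Klf motifs less often, each with intervals that did not overlap. ETS was found at 6.85% of 1504 promoter members (5.62 to 8.24), against 0.917% of 218 promoter regions open only in 3% oxygen (0.111 to 3.27), 5.70% of promoter regions open in all 4 libraries (5.03 to 6.43) and 3.66% of those of the pool (3.42 to 3.90). NRF1 was found at 4.45% of promoter members (3.47 to 5.62), against 0.459% of those open only in 3% oxygen (0.012 to 2.53), which is 1 region, 3.04% of those open in all 4 libraries (2.56 to 3.59) and 2.40% of those of the pool (2.20 to 2.60). For both motifs the interval of the members did not overlap that of the hypoxic regions and did overlap that of regions open in all 4 libraries. These sets were not matched for peak strength. A lower −log10 q from 2 to 3 was found at 421 of the 852 regions open only in 3% oxygen and 1542 of the 4470 members. The part of strength in this contrast was not tested. In the pair labelled passage 1, ETS was at 4.08% (2.97 to 5.45) and NRF1 at 2.65% (1.77 to 3.81). The GC box of Sp and Klf proteins, GGGCGGGG, was found at 18.5% of promoter members (16.6 to 20.5), against 17.9% of promoter regions open only in 3% oxygen (13.0 to 23.6), 41.2% of those open in all 4 libraries and 22.3% of those of the pool. NF-Y was found at 4.85%, against 3.67% of the hypoxic regions, 12.8% of those open in all 4 libraries and 5.46% of the pool.

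**Figure D4:**
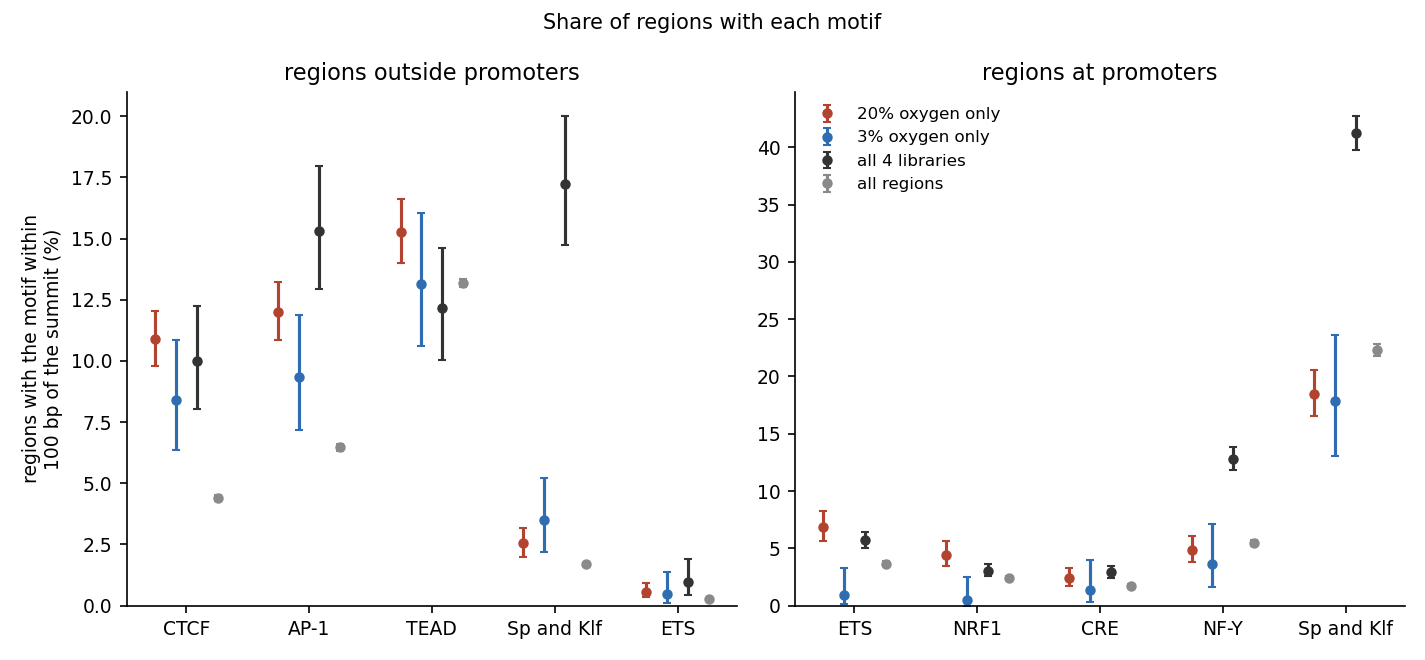
Share of regions (vertical axis, percent) with each motif within 100 bp of the summit, outside promoters (left) and at promoters (right); points are the 4 sets named in the legend and bars are exact 95% intervals. At promoters, 6.85% of members held the ETS motif, against 0.917% of regions open only in 3% oxygen, sets that were not matched for peak strength.

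The same motifs were then compared at like peak strength, between members and the other regions with a peak in both normoxic libraries. At promoters the Sp and Klf motif was less frequent in members at every strength compared. It was found at 15.1% of members against 30.3% of regions with a hypoxic peak for a lower −log10 q from 2 to 3, at 20.2% against 32.2% from 3 to 5, at 20.5% against 37.8% from 5 to 7 and at 18.5% against 40.7% from 7 to 10, and in none of these did the intervals overlap. For ETS the intervals overlapped in the classes below 7 and were apart from 7 to 10. It was found at 5.31% of members (3.87 to 7.08) against 5.87% of the other promoters (4.95 to 6.91) from 3 to 5, at 11.4% (7.08 to 17) against 6.49% (5.37 to 7.76) from 5 to 7, and at 20% of 65 members (11.1 to 31.8) against 7.52% of 1556 (6.26 to 8.94) from 7 to 10. NRF1 was at 3.70% of members (2.51 to 5.25) against 3.64% (2.92 to 4.49) from 3 to 5, and at 12.3% (5.47 to 22.8) against 3.41% (2.56 to 4.43) from 7 to 10. The last of these classes holds only 13 members with ETS and 8 with NRF1, and its promoter members were 274 bp wide at the median against 405 bp for the others, a difference whose part in the shares was not tested.

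Outside promoters AP-1 was less frequent in members than in regions that also had a hypoxic peak in the class from 3 to 5. From 3 to 5 it was found at 12.7% of 1518 members (11.1 to 14.5), against 23.7% of 1121 other regions (21.3 to 26.3), and from 5 to 7 at 16.6% of 163 members (11.2 to 23.2), against 21.2% of 424 (17.4 to 25.4), where the intervals overlap. CTCF from 3 to 5 was found at 11.6% of members (10.0 to 13.3), against 15.3% of the other regions (13.2 to 17.5), again with overlapping intervals. From 2 to 3 AP-1 was at 11.0% against 16.0%, and CTCF at 9.28% against 11.9%. CTCF was at 15.95% against 15.80% from 5 to 7. From 7 to 10 CTCF was at 21.2% of 33 members (8.98 to 38.9) against 14.4% of 257 (10.3 to 19.3), and AP-1 at 15.2% against 15.6%. The intervals overlapped in each of these classes.

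**Figure D5:**
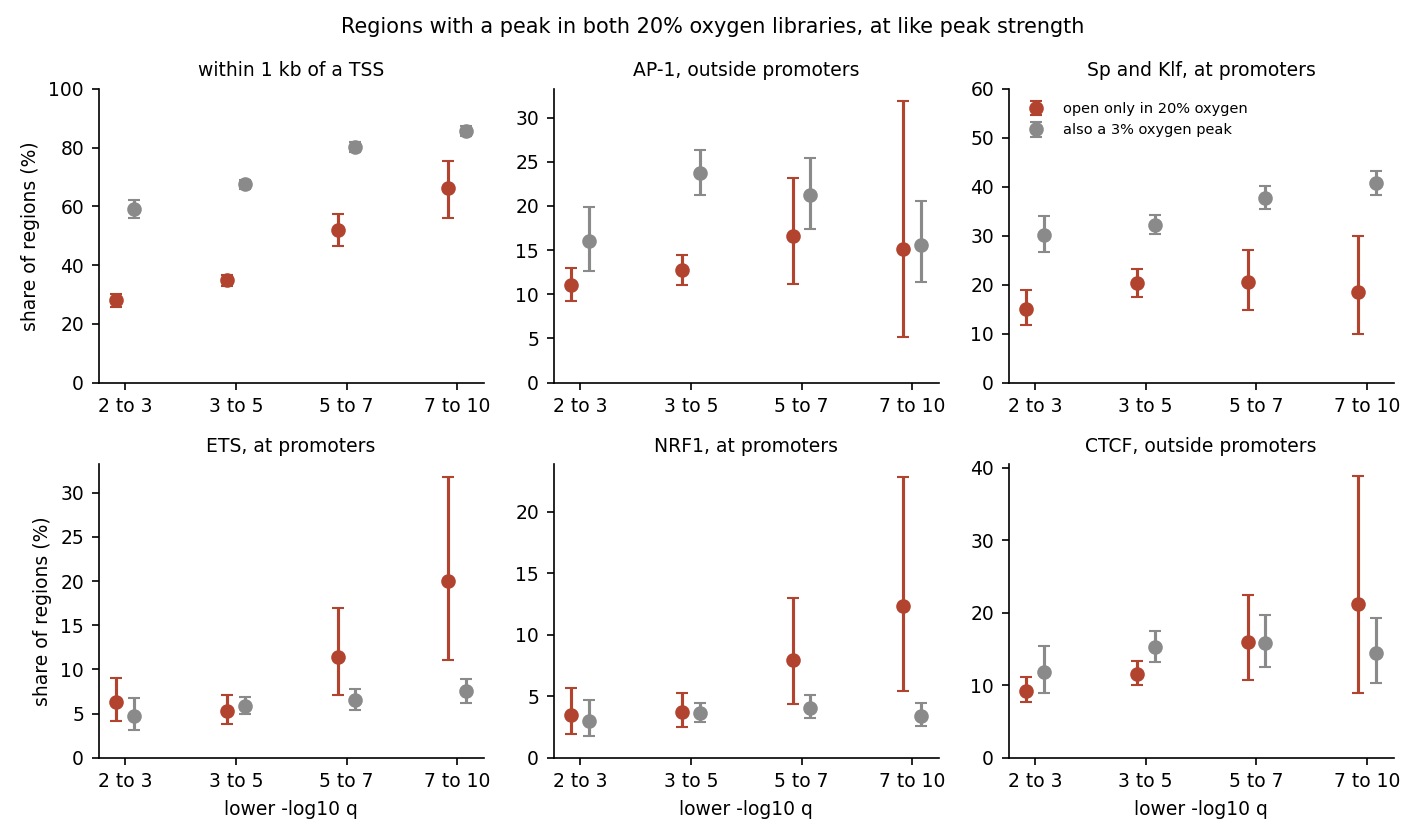
Share of regions (vertical axes, percent) at promoters or with a motif, by the lower −log10 q of the 2 normoxic libraries (horizontal axes), for members (red) and regions that also have a hypoxic peak (grey); bars are exact 95% intervals. The Sp and Klf motif is less frequent in members in all 4 bins, from 15.1% against 30.3% to 18.5% against 40.7%.

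Motifs of factors tied to oxygen, oxidants, p53 and Tfcp2l1 were counted in the same windows. The HIF motif TACGTGC was found at 23 members, or 0.516% (0.328 to 0.774), against 0 of 849 regions open only in 3% oxygen, which allows up to 0.434%, and 0.420% of the pool. The NRF2 motif TGACNNNGC, which is also found where an AP-1 match is followed by GC, was at 11.2% of members, 10.0% of regions open only in 3% oxygen and 9.29% of the pool. The Tfcp2l1 motif, allowed 2 mismatches, was at 36 members, or 0.808% (0.567 to 1.12), against 1.18% of regions open only in 3% oxygen (0.566 to 2.16) and 0.655% of the pool. The p53 motif, allowed 2 mismatches, was at 0.718% of members and 0.629% of the pool. A match says only that the letters are in the window.

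Tfcp2l1 ChIP-seq peaks overlapped 17 members, or 0.380% (0.222 to 0.608), against 0 of 852 regions open only in 3% oxygen, which allows up to 0.432%, 1.898% of regions open in all 4 libraries and 0.172% of the pool. The pair labelled passage 1, which mixes the oxygen levels, had 0.407% (0.211 to 0.710). The late pair had 0.293% (0.060 to 0.853), Norm-Sen with Hyp-Pro 0.211% (0.077 to 0.458) and Norm-Pro with Hyp-Imm 0.079% (0.002 to 0.440). All of these intervals overlap that of the members. Peaks of the senescent, normoxic ChIP-seq library overlapped 8 members and peaks of the immortalized, hypoxic one 13. The strongest of the 17 were near Gm10715, Dnttip2, Snx12, Fbxo33, Btn1a1, Iqca, Zfp988 and Obox2. The member near Gm10715 was repeat-masked over 95% of its window. The member over the start of Snx12, a sorting nexin, lay in unique sequence with ETS and NRF1 motifs, 0.213 kb from a hypoxic peak, and had folds of 5.81 in Norm-Pro and 5.44 in Norm-Sen.

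Members were also counted around 21 genes that the study followed. Of these, 13 had a member, against 24.4% of all genes, and 19 of 804 regions in their domains were members, or 2.36%, against 2.62% of the pool. Distances with a minus sign are upstream. Each gene was given a regulatory domain that covers the 5 kb before and the 1 kb after its 5′ end and extends by up to 1 Mb toward the neighbouring genes. Such domains can overlap, and a region in more than 1 of them was counted for each gene. Cdkn1a had 1 member among 10 regions of the pool in its domain, Cdkn2b 2 of 29 and Cdkn2a, the gene of p16 and p19, 1 of 22. The Cdkn1a member shown above had folds of 4.01 in Norm-Pro and 3.61 in Norm-Sen, and the Cdkn2b member, 116.9 kb from the nearest start site, had 7.29 and 6.09. The promoters of Cdkn2a and Cdkn2b had a peak in all 4 libraries, and that of Cdkn1a had one in every library but Hyp-Imm. Nanog had 2 members among 17 regions. The one shown above, at -4.83 kb from the 5′ end, had folds of 5.61 in Norm-Pro and 3.79 in Norm-Sen, and a hypoxic peak lay 0.448 kb from it.

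Klf4, a reprogramming factor, had 3 members of 65 regions, Jarid2, a Polycomb subunit, 2 of 80 and Myc 2 of 112. The strongest of these, at -582 kb from the 5′ end of Klf4, had folds of 6.95 in Norm-Pro and 7.34 in Norm-Sen, with the nearest hypoxic peak 226 kb away. The Jarid2 member in an intron, 41.6 kb downstream of the 5′ end, had folds of 5.78 and 4.93 and an AP-1 motif. Hif1a, Rest, Sox2, Sox9, Tgfa and Vegfa had 1 each. The nearest start site was that of another gene for the members of Rest (Noa1), Sox2 (Atp11b), Tgfa (Fam136a) and Vegfa (Mrps18a). The same held for 1 member of Nanog (Slc2a3) and 1 of Klf4 (Gm26657). The Sox2 member was 623 kb from the 5′ end of Sox2. The member at -41.8 kb from the 5′ end of Vegfa, the hypoxia-responsive growth factor of vessels, had folds of 5.51 in Norm-Pro and 3.74 in Norm-Sen and lay 0.042 kb from a hypoxic peak. No member lay in the domains of Tfcp2l1, with 44 regions, Ezh2, Bmi1, Bax, Klf2, Ldha, Pou5f1 or Esrrb.

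Across 15 gene lists the share of regions that were members stayed near the 2.62% of the pool, and the interval of 13 lists held that value. Genes of the cell cycle and DNA replication had the largest share, with 19 of 380 regions or 5.00% (3.04 to 7.70). They include 3 members each at Ccnd1 and Cdk6, cyclin D1 and its kinase partner, and 2 each at Ccnd3 and E2f3. A member at the promoter of Cdk6 had folds of 4.73 in Norm-Pro and 4.98 in Norm-Sen, and its promoter had no hypoxic peak. Of the 34 genes of this list, 1 had a promoter open only in 20% oxygen, against 4.12% of all genes. The promoter of Ccnd1 had a peak in Hyp-Pro and in no other library. Genes of pluripotency and stemness had the smallest share, with 14 of 923 regions or 1.52% (0.832 to 2.53). These were the 2 lists whose intervals left out the pool's share. The intervals were not corrected for the number of lists. Promoters made up 33.6% of members and 13.7% of the pool, and the lists were not matched for promoters or for domain size. The 380 regions of the cell cycle list belong to 34 genes and the 923 of the pluripotency list to 24. The part of this in the shares was not tested.

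CDK inhibitors and p53 targets had 15 members of 398 regions, or 3.77% (2.12 to 6.14). Of these 24 genes, 2 were open at the promoter only in normoxia, against 4.12% of all genes. They were Tigar, which restrains glycolysis, and Zmat3, an RNA-binding target of p53. The folds were 5.84 and 4.91 in Norm-Pro and Norm-Sen at Tigar and 4.44 and 4.00 at Zmat3. The domain of Zmat3 held 2 members and also 2 regions open only in 3% oxygen. The myofibroblast and TGF-beta list had 32 of 852, or 3.76% (2.58 to 5.26), with 4 members each at Smad2 and Tgfb3 and 3 each at Inhba and Smad6. Secreted factors of senescent cells had 13 of 651, or 2.00% (1.07 to 3.39). Among them the chemokine genes Ccl2 and Ccl5 had a member at the promoter and no hypoxic peak there, with folds of 6.17 and 4.32 at Ccl2 and 3.55 and 4.15 at Ccl5. In this list 3 of 40 genes had a promoter open only in 20% oxygen, against 4.12% of all genes. The list of HIF factors, hypoxia targets and glycolysis had 20 of 636, or 3.14% (1.93 to 4.81), with 3 members at Egln3, an oxygen-sensing hydroxylase, and 2 each at Hk2, Lox and Mxi1, and the promoter of none of its 40 genes was open only in 20% oxygen, against 4.12% of all genes.

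The other lists lay between these values. Mesenchymal transcription factors had 2.95%, with 6 members at Tbx18, 4 each at Osr1 and Tead1 and 3 at Meis1. YAP, TEAD and their targets had 3.14%, with 4 at Tead1 and 2 each at Amotl1 and Yap1, and growth factor receptors and ligands 3.12%, with 5 at Bdnf and 3 at Ntrk2. Actin and adhesion genes had 2.67%, with 5 at Arhgap24 and 3 at Lpp, AP-1 factors 2.58%, with 1 each at Batf, Fos, Fosb and Fosl1, and glycogen metabolism 2.49%, with 3 at Ppp1r3b. Collagens and extracellular matrix had 1.97%, with 2 each at Adamts5, Col1a1, Col8a1 and Dcn. Polycomb components had 1.84%, with 2 each at Jarid2 and Rnf2, and antioxidant and NRF2 targets 1.78%, with 2 at Nfe2l2, the gene of NRF2.

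Promoters open only in normoxia were most numerous in the list of growth factor receptors and ligands, at 7 of 31 genes, against 4.12% of all genes. These were Pdgfra, Pdgfd, Ereg, Igf2r, Kit, Ntrk2 and Ntrk3, which apart from Ereg and Ntrk2 were named after their values were seen. The list of collagens and matrix had 3 of 37 such genes, among them Col1a1, a main chain of type I collagen, whose promoter peak had folds of 4.79 in Norm-Pro and 3.23 in Norm-Sen. Pdgfra and Col1a1 also stand among the 14 fibroblast markers used to check the label, of which 7 had a promoter peak in Norm-Pro and 8 in Norm-Sen, while 8 had one with Hyp-Pro and 4 with Hyp-Imm. Col3a1, Prrx1, Dcn and Lum had none in any library. The fibroblast markers Thy1 and S100a4 went the other way, with a promoter peak in Hyp-Pro and in neither normoxic library. Pdgfrb had a promoter peak in Norm-Sen and in Hyp-Pro. Of the 6 markers of macrophages and blood, the libraries Norm-Pro and Norm-Sen had 1 promoter peak each, Hyp-Pro 0 and Hyp-Imm 2, and the 3 markers of keratinocytes and liver had none. Of 6 neural markers, 3 had a promoter peak in Norm-Pro and 2 in Norm-Sen, while Hyp-Pro had 3 and Hyp-Imm 1. Of 5 endothelial markers, each library had 2 except Hyp-Imm with 1. Of 5 epithelial markers, each library had 1 except Hyp-Pro with 2, and of 4 skeletal muscle markers each had 1 except Hyp-Imm with 0. The part of these differences in the members was not tested.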

How the data were processed

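ATAC-seq peaks of 4 libraries and Tfcp2l1 ChIP-seq peaks of a further 2, with 1 library per condition, were analysed. For ATAC-seq the authors used Bowtie2 and the GRCm38 (mm10) assembly, discarded pairs over 2 kb apart, moved reads to the Tn5 cut and ran MACS2 on each library with an FDR threshold of 0.05. ChIP-seq peak names show an FDR of 0.01. The build of the ChIP-seq peaks is not stated in the labels or methods, and GRCm38 was assumed for the overlap. The deposited fold enrichment is a ratio within a library, and the deposited −log10 p and q values and the score were also computed per library by the authors. Fold and −log10 q were used to rank and filter within a library, and the −log10 p and score were not used. The authors give a nominal number of reads per ATAC-seq sample, and the reads left in each library after filtering are unknown.

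Peaks were merged at a distance of 0 bp, and start sites were those of protein-coding transcripts of GENCODE mouse release 21 (basic set). Sequence is that of RefSeq's copy of GRCm38. Intervals of shares are 95% and exact (Clopper-Pearson). They take in the counting error over regions alone, and no test was made. In total 24 motifs were searched. Members named are the 12 strongest with a start site within 100 kb, the 12 strongest promoters of genes with no hypoxic peak at any start site, the 8 genes with most members in their domain, up to 4 genes per list, the study's genes and up to 8 members under ChIP-seq peaks. The members and lists were chosen with earlier results of these data known. Merging, motif counts and distances were tested on simulated data. Python 3.11.15, pandas 2.3.3, NumPy and SciPy were used.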

Additional observations from a re-analysis of the deposited data

How the results depend on the processing

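With no replicates, no error between cultures is known, the intervals do not cover it, and no sample can be left out. No paired analysis was possible because each condition has 1 library so no replicate numbers are shared between replicated groups. Conditions from the file names would turn the members into the 852 regions of the other pair, with 25.6% at promoters, 7.18% with AP-1, 7.30% with CTCF, 0.589% with ETS, 0.236% with NRF1 and 0% under a Tfcp2l1 peak.

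The count of members was 1574 with a −log10 q of at least 5 in every library, 2284 with equal numbers of peaks and 453 with −log10 q of at least 5 in both normoxic libraries and no hypoxic peak at the authors' threshold, and stayed within 1.5 times of 4470 under the other 5 settings. A threshold in every library also removes weaker hypoxic peaks. Of the 4470 members, 2790 reached 3 and 453 reached 5 in both normoxic libraries, against 3291 and 1574 regions counted at these thresholds. Part of the regions counted at these thresholds were therefore not among the 4470 and had a weaker hypoxic peak. The promoter share was 41.8%, 69.5%, 44.7% and 54.7% with −log10 q of at least 3, of at least 5, with equal peak numbers and with the strict set of 453. It was 22.2% without members within 500 bp of a hypoxic peak, 31.0% and 35.8% with start sites within 500 bp and 2 kb, and 30.2% with the 5′ end of each gene only, a setting chosen after seeing the data.

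ETS was 3.51%, 7.17%, 3.88% and 7.83%, and NRF1 2.54%, 5.38%, 3.04% and 6.04%, under −log10 q of at least 3, of at least 5, equal peak numbers and the strict set. ETS was 2.23% without members near a hypoxic peak. AP-1 was 6.09% with −log10 q of at least 5 and 10.4% without members near a hypoxic peak, and CTCF 10.7% with equal peak numbers and 10.0% without members near a hypoxic peak. In a 100 bp window AP-1, CTCF, ETS and NRF1 were 5.73%, 5.55%, 1.57% and 0.921%, and without members within 1 kb of a start site 12%, 10.9%, 0.576% and 0.814%. Without repeat-masked windows AP-1 was 9.82% and CTCF 10.1%. The Tfcp2l1 overlap was 0.826%, 0.613% and 1.32% with −log10 q of at least 5, equal peak numbers and the strict set. The cause of these shifts was not tested. Of the 15 gene lists, 11 kept their side of the background share when regions were given to the nearest start site within 100 kb, 12 with −log10 q of at least 3, and 7 by the file names.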

Other observations

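The genes with most members in their regulatory domain were named by count. A region was counted in every domain that held it, so genes that are neighbours can share members. The counts of Cwc22, Ube2e3 and Zfp385b, all on chromosome 2, are therefore not to be added. Cwc22, the gene of a splicing factor on chromosome 2, had 18 members among 142 regions of the pool in its domain, and Gm15319 and Gm21119 on chromosome 8 had 12 of 86 and 9 of 52. Ube2e3, a ubiquitin-conjugating enzyme on chromosome 2, had 9 of 104. Asah2, a ceramidase on chromosome 19, Satb1 on chromosome 17, Zfp385b on chromosome 2 and Zfp608 on chromosome 18 had 7 each. Cwc22 also had 15 regions open in all 4 libraries, whereas Asah2 and Satb1 had 0 of these, and the promoter of Asah2 was open only in normoxia.

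By chromosome, members were 1.79% of the regions of X and 3.22% of those of chromosome 19, with the other autosomes between. Chromosome Y had 2 of 42, and 16 of the 195 regions off the main chromosomes were members. Members were of mostly unique sequence. Under 50% of the 49-base words were unique at 0.516% of members, against 1.77% of regions open only in 3% oxygen and 1.44% of the pool, and 13.8% of members were repeat-masked over more than 50% of the window, against 23.2% and 22.2%.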
